A study of Mus musculus with 3 samples.

Results

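The 7 genes Ifitm1, Ifitm3, Isg15, Irf7, Ifit1, Ifit3 and Bst2, all known to be induced by interferon, were read by symbol from the deposited counts of unique molecular identifiers (UMIs), which listed 32285 genes. They were followed across the epithelial, mesenchymal and immune cells of 2 kinds of mouse fetal thymus culture and between the 2 cultures. Organoid reaggregate fetal thymic organ cultures (ORFTOCs) combined thymic epithelial cells (TECs) grown as organoids from E16.5 thymi, cells of E13.5 thymi from which epithelium had been depleted, and mouse embryonic fibroblasts. Fetal thymic organ cultures (FTOCs) were E13.5 thymic lobes kept intact. Both were wild type. The thymi came from C57BL/6J mice per the study's methods, which call the fibroblasts wild type and give no strain for them. The labels list no treatment, and both cultures were kept in the same medium, which held the growth factor FGF7 throughout and the ROCK inhibitor thiazovivin at the start. Both were dissociated on culture day 13. For each kind 2 cultures were mixed and marked with 1 hashtag antibody, and both pools ran in 1 droplet lane. Each pool is therefore 1 sample, the cultures within it cannot be told apart, and no test between pools was possible.

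Interferons are secreted proteins that bind receptors on the cell surface. Type I and type III interferons signal through JAK kinases to transcription factors that bind response elements in front of their target genes, and interferon gamma acts through a receptor of its own. In the thymus, TECs are known to make type I and type III interferons without infection, and thymocytes meet them during their maturation.

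After filtering, 8392 cells remained. There were 1231 epithelial cells in ORFTOC and 954 in FTOC, 204 and 56 mesenchymal cells, and 2817 and 3130 immune cells. The median UMIs per cell were 13344 and 12139.5 in epithelial, 19338 and 15501 in mesenchymal, and 5341 and 2490.5 in immune cells of ORFTOC and FTOC. The compartments carried their defining markers: the epithelial marker Epcam stood at 1163 CPM (UMIs of a gene scaled to a common total of all UMIs) in the ORFTOC epithelium and 1164 CPM in that of FTOC, against 9.88 to 47.9 CPM in the other compartments, and the fibroblast marker Pdgfra stood at 305 and 396 CPM in mesenchymal cells. The endothelial marker Cdh5 had 0 UMIs in epithelial and mesenchymal cells. The pools also differed in the sex of their source animals, since the Y-linked gene Eif2s3y had 690 UMIs in ORFTOC epithelium and 0 in that of FTOC. Sex, the origin of the epithelium, the added fibroblasts of ORFTOC and the kind of culture cannot be told apart. Mesenchymal cells of ORFTOC can be added embryonic fibroblasts or thymic mesenchyme, and these were not separated. Free RNA, estimated from markers of other compartments, made up an estimated 4.69% and 4.68% of the UMIs of epithelial cells in ORFTOC and FTOC, 3.13% and 7.92% in mesenchymal cells, and 9.42% and 19.0% in immune cells.

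The sequences in front of the start sites bear on which members could share a response element. All 7 members had an entry in the RefSeq promoter table (GRCm38.p6, the mm10 assembly that the deposited counts used). The interferon-stimulated response element was searched on both strands as GAAA repeated after any 2 bases, in the 250 bases before each start site. A match was found in 4 of the 7 members, Isg15, Ifit1, Ifit3 and Bst2, and in 2.98% of all 32851 windows in the table (3.46% of 27025 genes). The gamma-activated site, searched as TTC and GAA separated by any 3 bases, which reads the same on both strands, was found in Bst2 of the members and in 7.02% of all windows. Its match in Bst2 overlapped the first response element match there by 3 letters. Both motifs and the windows shown were chosen after the promoters had been seen. Windows are shown for 3 genes with a match and, for contrast, for Ifitm1, which had none. Each runs 5′ to 3′ on the strand of its gene and ends at the last base before the start site. Capitals mark the letters of response element matches on either strand.
Isg15 (chr4:156200819-156201068, minus strand): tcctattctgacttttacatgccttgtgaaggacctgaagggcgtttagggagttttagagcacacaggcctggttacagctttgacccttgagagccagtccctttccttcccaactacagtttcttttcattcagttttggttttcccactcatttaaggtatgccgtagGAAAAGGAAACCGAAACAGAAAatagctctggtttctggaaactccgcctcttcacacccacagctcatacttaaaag
Ifit1 (chr19:34640639-34640888, plus strand): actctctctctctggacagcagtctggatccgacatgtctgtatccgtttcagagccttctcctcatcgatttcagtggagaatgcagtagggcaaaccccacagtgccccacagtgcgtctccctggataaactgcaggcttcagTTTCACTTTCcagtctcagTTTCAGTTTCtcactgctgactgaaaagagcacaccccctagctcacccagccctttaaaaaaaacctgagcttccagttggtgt
Ifit3 (chr19:34583279-34583528, plus strand): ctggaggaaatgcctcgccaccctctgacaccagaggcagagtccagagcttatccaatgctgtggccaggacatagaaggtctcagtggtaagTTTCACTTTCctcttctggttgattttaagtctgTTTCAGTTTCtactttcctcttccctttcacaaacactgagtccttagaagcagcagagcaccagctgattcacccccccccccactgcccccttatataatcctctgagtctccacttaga
Ifitm1 (chr7:140967826-140968075, plus strand): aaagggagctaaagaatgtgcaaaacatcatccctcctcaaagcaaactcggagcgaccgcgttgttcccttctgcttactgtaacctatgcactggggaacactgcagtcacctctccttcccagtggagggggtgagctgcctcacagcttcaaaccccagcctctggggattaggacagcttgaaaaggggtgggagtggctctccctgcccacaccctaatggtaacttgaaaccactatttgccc

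In Isg15 the capitals hold 3 overlapping matches on the strand of the gene, which begin 78, 72 and 66 bases before the start site. Ifit1 had 2 matches on the opposite strand, beginning 104 and 85 bases before the start site, and Ifit3 had 2 there as well, beginning 156 and 122 bases before it. Bst2 on chromosome 8 had 2 overlapping matches that begin 130 and 124 bases before its start site. Ifitm1, Ifitm3 and Irf7, all on chromosome 7, had no match in the 250 bases, and in Ifitm3 there were 2 matches that reach past the start site. Of the 5 members that varied together across populations, described later, Isg15, Ifit1 and Ifit3 had a match and Irf7 and Ifitm3 did not, while Bst2, outside that group, had 2. These are matches of letters only, and no binding was measured.

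Across compartments, 5 of the 7 members had their highest level in epithelial cells of both pools, and Bst2 and Ifitm1 did not. Levels below are sums over the cells of a compartment in CPM, and their intervals are exact 95% Poisson intervals or, for ratios, exact conditional binomial intervals, all of which cover counting error only. Levels were compared for 1 gene between cell types, never between genes. Because the clustering that set the compartments and populations used all genes, the members included, levels by cell type are a description.

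Ifitm3, a membrane protein that blocks the entry of viruses, stood at 7022 CPM in ORFTOC epithelium and 6874 CPM in FTOC epithelium. In mesenchymal cells it stood at 2641 and 3621 CPM, and in immune cells at 235 and 246 CPM. The epithelial level was 29.9 times the immune level in ORFTOC (interval 29.1 to 30.8) and 28.0 times in FTOC (27.1 to 28.9). With cells thinned to 1000 UMIs, 97.5% of ORFTOC and 96.3% of FTOC epithelial cells had an Ifitm3 UMI, against 11.8% and 11.4% of immune cells. Without thinning the shares were 99.4% and 99.7% in epithelium and 29.6% and 24.0% in immune cells. Ifitm3 stood at 1513 CPM in the free RNA profile. Subtracting that profile at the share estimated for all FTOC immune cells together (19.0%) left fewer than 3 Ifitm3 UMIs in their sum. That share came from Epcam and Pdgfra, and it was not estimated by population. Among FTOC immune cells Ifitm3 was uneven, with 921 CPM in macrophage or monocyte-like cells and 103 CPM in DP-like cells. Within immune cells, immune cluster 15 (128 cells, led by the parathyroid genes Pth and Chga) held 47.0% of the Ifitm3 UMIs in FTOC and 17.5% in ORFTOC, while macrophage or monocyte-like cells held 15.02% and 53.4%. None of the 10 leading genes of cluster 15 was on the marker lists for immune cells, and the cluster was counted as immune by its place in the clustering. Without it Ifitm3 stood at 197 CPM in ORFTOC immune cells and 136 CPM in those of FTOC.

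Isg15, a ubiquitin-like protein that is attached to other proteins, stood at 1592 CPM in ORFTOC epithelium and 1683 CPM in FTOC epithelium. Its mesenchymal levels were 409 and 491 CPM, and its immune levels 330 and 403 CPM. Epithelium thus held 4.82 times the immune level in ORFTOC (4.70 to 4.95) and 4.18 times in FTOC (4.06 to 4.30). At 1000 UMIs per cell, 63.0% and 64.2% of epithelial cells had an Isg15 UMI, against 18.02% and 19.3% of immune cells.

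Ifit1 and Ifit3 encode antiviral proteins with tetratricopeptide repeats. Ifit1 stood at 322 and 308 CPM in the epithelium of ORFTOC and FTOC, at 55.3 and 105 CPM in mesenchymal cells and at 56.3 and 75.7 CPM in immune cells. Ifit3 stood at 465 and 419 CPM in epithelium, at 76.6 and 98.5 CPM in mesenchymal cells and at 42.6 and 48.4 CPM in immune cells. Both were lower outside the epithelium in either pool, and epithelial Ifit3 was 10.9 times the immune level in ORFTOC and 8.65 times in FTOC. Ifit3 and its near copy Ifit3b can share reads, so their split is uncertain, and the Ifitm genes resemble each other as well.

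Irf7, the transcription factor that amplifies type I interferon production, stood at 545 CPM in ORFTOC epithelium and 404 CPM in FTOC epithelium. Mesenchymal levels were 140 and 195 CPM, and immune levels 165 and 158 CPM. The epithelial level was 3.30 times the immune level in ORFTOC and 2.56 times in FTOC.

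Bst2, the membrane protein tetherin that holds budding viruses at the cell surface, was highest in mesenchymal cells, with 918 CPM in ORFTOC and 848 CPM in FTOC. Epithelial cells stood at 500 and 403 CPM and immune cells at 491 and 408 CPM. The ratio of the epithelial to the immune level was 1.02 in ORFTOC (0.99 to 1.05) and 0.987 in FTOC (0.951 to 1.02), so the compartments did not differ beyond counting error in either pool.

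Ifitm1, a family member found mostly at the plasma membrane, was highest in mesenchymal cells of both pools, with 420 CPM in ORFTOC and 702 CPM in FTOC. In epithelium it stood at 164 CPM in ORFTOC and 25.6 CPM in FTOC, and in immune cells at 62.3 and 139 CPM. Epithelium was above immune cells in ORFTOC (ratio 2.64, 2.47 to 2.82) and below them in FTOC (ratio 0.185, 0.164 to 0.208).

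**Figure D1:**
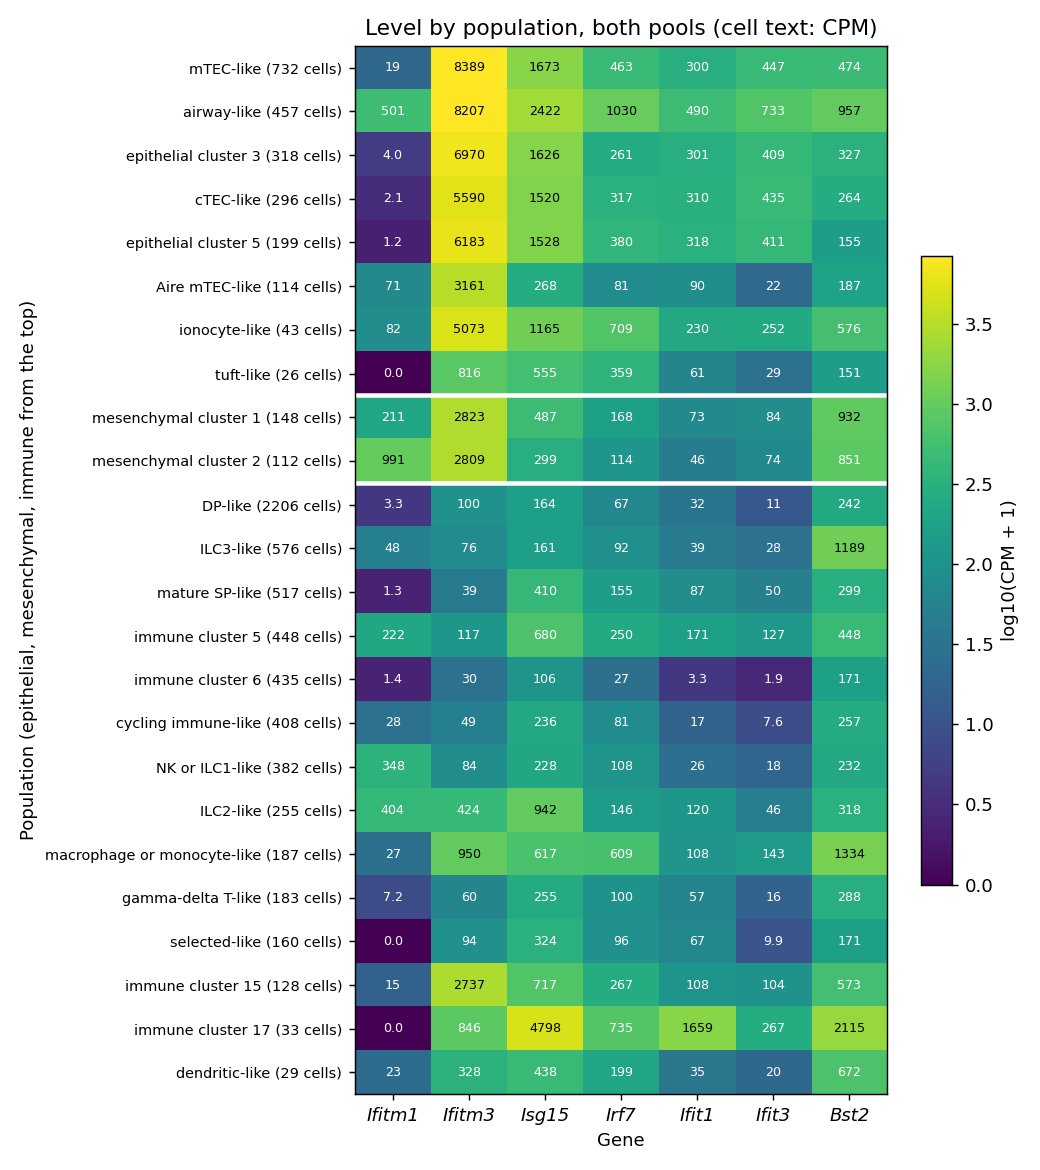
Level of each gene (columns) in each population (rows, with the number of cells, in both pools together). The numbers are CPM and the colour is log10(CPM + 1), with white lines between epithelial, mesenchymal and immune populations. Ifitm3 fills the epithelial block, Isg15, Ifit1 and Bst2 peak in immune cluster 17, and Ifitm1 is high in a few populations of every compartment.

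The epithelial populations differed among themselves. They were mTEC-like (medullary TECs, 732 cells), airway-like (457), cTEC-like (cortical TECs, 296), Aire mTEC-like (medullary TECs with the autoimmune regulator, 114), ionocyte-like (43) and tuft-like cells (26), and the unnamed clusters 3 (318 cells, led by Igfbp2 and Ndrg1) and 5 (199 cells, led by Lypd1 and Prss23). Over both pools, the airway-like population had the highest epithelial level of Isg15 (2422 CPM), Irf7 (1030 CPM), Ifit1 (490 CPM), Ifit3 (733 CPM), Bst2 (957 CPM) and Ifitm1 (501 CPM). Ifitm3 was highest in mTEC-like cells (8389 CPM), with airway-like cells next at 8207 CPM, and the intervals of these neighbours did not overlap. In cTEC-like and mTEC-like cells and clusters 3 and 5, Ifit1 lay between 300.2 and 318 CPM, with overlapping intervals, and Ifit3 between 409 and 447 CPM. The mTEC-like class depended on the clustering. It held 732 cells here and 762 with doublets kept, but 264 when the interferon genes were left out of the clustering and 0 after log-normalisation. The airway-like class held 441 to 476 cells under these 3 alternatives.

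Aire mTEC-like and tuft-like cells were at the low end. Isg15 stood at 268 CPM in Aire mTEC-like cells and at 555 CPM in tuft-like cells, while the other 6 epithelial populations lay between 1165 and 2422 CPM. Ifit3 stood at 21.6 and 29.3 CPM, with overlapping intervals, against at least 252 CPM in the others. Ifit1 stood at 89.8 and 61.1 CPM, again with overlapping intervals, against at least 229.7 CPM. Irf7 separated the pair, with 81.3 CPM in Aire mTEC-like cells and 359 CPM in tuft-like cells. Ifitm3 was lower in tuft-like cells (816 CPM) than in Aire mTEC-like cells (3161 CPM).

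Ifitm1 was unevenly spread in every compartment. In the epithelium it stood at 501 CPM in airway-like cells, at 82.1 CPM in ionocyte-like and 71.1 CPM in Aire mTEC-like cells, whose intervals overlapped, and at 19.2 CPM in mTEC-like cells. The cTEC-like cells and clusters 3 and 5 lay between 1.22 and 3.96 CPM, and tuft-like cells had 0 UMIs. In mesenchymal cells it stood at 991 CPM in cluster 2 (112 cells) and 211 CPM in cluster 1 (148 cells, led by Spp1 and Mfap5). In immune cells it stood at 404 CPM in ILC2-like cells, 348 CPM in NK or ILC1-like cells and 222 CPM in immune cluster 5 (448 cells, led by Ly6c2 and Jchain). DP-like cells (CD4 and CD8 double positive thymocytes), which were the most numerous immune population with 2206 cells, had 3.27 CPM.

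Most immune populations had low levels of the other members, with several departures. DP-like cells had 164 CPM of Isg15, 32.2 CPM of Ifit1 and 11.1 CPM of Ifit3. Mature SP-like cells (CD4 or CD8 single positive) had 410, 87.2 and 50.4 CPM of the same genes, above DP-like cells with intervals that did not overlap. Bst2 stood at 1334 CPM in macrophage or monocyte-like cells and 1189 CPM in ILC3-like cells, against 242 CPM in DP-like cells. Irf7 stood at 609 CPM in macrophage or monocyte-like cells. Immune cluster 6 (435 cells, led by histone genes) had the lowest Isg15 (106 CPM), Irf7 (27.3 CPM), Ifit1 (3.31 CPM) and Ifit3 (1.86 CPM) of all populations.

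Immune cluster 17 was a small group with high levels of several members. The members and the other interferon genes were among the genes that formed the cluster. Their high levels and detection in it, given below with counting intervals, therefore describe how it was set apart and are no separate support for it. It held 33 cells, 26 of FTOC (0.831% of its immune cells) and 7 of ORFTOC (0.248%), and 8 of its 10 leading genes belonged to the interferon genes followed here. All 33 cells had Isg15 and Bst2 UMIs, and at least 4 Isg15 UMIs were found in each. Isg15 stood at 4798 CPM (4356 to 5273), Bst2 at 2115 CPM, Ifit1 at 1659 CPM and Irf7 at 735 CPM, against 164, 242, 32.2 and 66.7 CPM in DP-like cells. Ifitm1 had 0 of 89826 UMIs in the cluster, whose exact interval reaches 41.1 CPM. The cluster also carried thymocyte genes, with Rag1 at 957 CPM, Cd8a at 1470 CPM and Dntt at 946 CPM, whereas Epcam was at 33.4 CPM and the macrophage gene C1qa at 0 UMIs. Genes known as targets of interferon gamma were high as well, with Igtp at 1113 CPM and Ifi47 at 1069 CPM against 153 and 128 CPM in DP-like cells. When the cells were clustered without the interferon genes, the 33 cells fell into 10 clusters, 4 of them DP-like, which took 24 of the cells.

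The members fell into a group of 5 that varied together, with Bst2 and Ifitm1 apart. This was measured by Pearson's r of log2(CPM + 10) over the 42 sums of a population and pool with at least 20 cells, all from the same lane, and is a description. Isg15 and Ifit1 had r = 0.94, Isg15 and Ifit3 0.90, Isg15 and Irf7 0.89, and Ifit1 and Ifit3 0.87. Ifitm3 had r = 0.69 to 0.81 with these 4 genes. Bst2 had r of at most 0.51 with any other member. Ifitm1 had r = 0.02 with Isg15, 0.01 with Ifit1 and 0.34 with Bst2.

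Genes outside the members and the list of other pathway genes given later were compared next. A gene outside that list can still be induced by interferon. The gene most like Isg15 and Irf7 among 8669 genes was Rnf213, a large ubiquitin ligase, with r = 0.87 and 0.93. The genes most like Ifit1 were H2-T23 (r = 0.86), H2-T22 (0.85) and Rnf213 (0.85), of which the H2-T genes encode nonclassical MHC class I molecules. Gm4951 was most like Ifit3 (r = 0.92). Ctnnd1, which encodes p120 catenin of cell junctions, was most like Ifitm3 (r = 0.94), Dpp7 most like Bst2 (0.73) and Ahnak most like Ifitm1 (0.69).

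Within cells Isg15 was compared with Ifit3, Irf7, Ifitm3 and Bst2. At 1000 UMIs per cell, Ifit3 was detected in 39.8% of epithelial cells with an Isg15 UMI (interval 37.2 to 42.4) and in 12.3% of those without (10.1 to 14.8). In immune cells the shares were 9.35% (7.69 to 11.2) and 1.60% (1.27 to 2.003). Epithelial Irf7 was detected in 43.0% and 19.0% and epithelial Bst2 in 39.4% and 21.1% of cells with and without Isg15. For Ifitm3 the shares were 99.3% and 93.0% in epithelial cells and 17.9% and 10.2% in immune cells. No member was found in 2.29% of epithelial and in 50.02% of immune cells at this depth. Cells of 1 pool are not replicates, so these intervals describe these cells only.

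Between the pools, the epithelial levels of 6 members lay within 1.35-fold of each other, and Ifitm1 was 6.42 times as high in ORFTOC as in FTOC. The log2 ratio of ORFTOC over FTOC in epithelium was 2.68 for Ifitm1 (2.51 to 2.85). It was 0.43 for Irf7, 0.31 for Bst2, 0.15 for Ifit3, 0.06 for Ifit1, 0.03 for Ifitm3 and -0.08 for Isg15. A gene was called when it differed over 2-fold with an interval that left out equality, among genes whose higher pool reached 20 CPM. By this rule 1 of the 7 members was higher in ORFTOC, against 3.06% of 7060 genes, and 0 were lower, against 1.53%. No test or p-value stands behind a call. The median log2 ratio was 0.15 over the members and 0.0074 over all genes tested. At a limit of 1.5-fold, 1 member was higher and 0 were lower in epithelium (background 7.08% and 4.18%), 0 higher and 2 lower in mesenchymal cells (3.8% and 8.96%), and 0 higher and 1 lower in immune cells (4.92% and 3.91%).

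In mesenchymal cells the summed levels of 6 members were lower in ORFTOC and that of Bst2 was slightly higher, and 0 were called in either direction (background 1.74% higher and 2.94% lower of 6766 genes). The log2 ratio was -0.92 for Ifit1 (-1.26 to -0.57), -0.74 for Ifitm1, -0.48 for Irf7, -0.46 for Ifitm3, -0.36 for Ifit3, -0.26 for Isg15 and 0.11 for Bst2. The FTOC values rest on 56 cells, of which 1 held 37.9% of the Ifit1 UMIs. Without the cell with most UMIs of the gene in each pool, an alternative chosen after the data had been seen, Ifit1 stood at 49.6 and 66.3 CPM and the interval of its log2 ratio (-0.42, -0.83 to 0.0074) held equality. So did the intervals of Isg15 (-0.12) and Ifit3 (-0.03), while Ifitm1 had -0.64 and Ifitm3 -0.45, with intervals below equality. The median over all genes tested was -0.10 against -0.46 over the members. In immune cells Ifitm1 was called lower in ORFTOC, with a log2 ratio of -1.15 (-1.25 to -1.05), as 1 of 7 members against 1.18% of 6449 genes, and 0 were called higher against 3.07%. The others lay between -0.43 for Ifit1 and 0.27 for Bst2, and only the interval of Irf7 (log2 ratio 0.06, -0.01 to 0.14) held equality. The direction of immune Ifitm3 (log2 ratio -0.07) turned under 7 of the 12 processing alternatives that gave it a ratio, and it was 0.54 (0.46 to 0.62) without immune cluster 15, an alternative also chosen after the data had been seen. With every cell given equal weight the immune Ifitm1 log2 ratio was -0.23, which is no longer a call, and 72.4% of the Ifitm1 UMIs of FTOC immune cells and 73.6% of those of ORFTOC came from 1% of the cells.

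**Figure D2:**
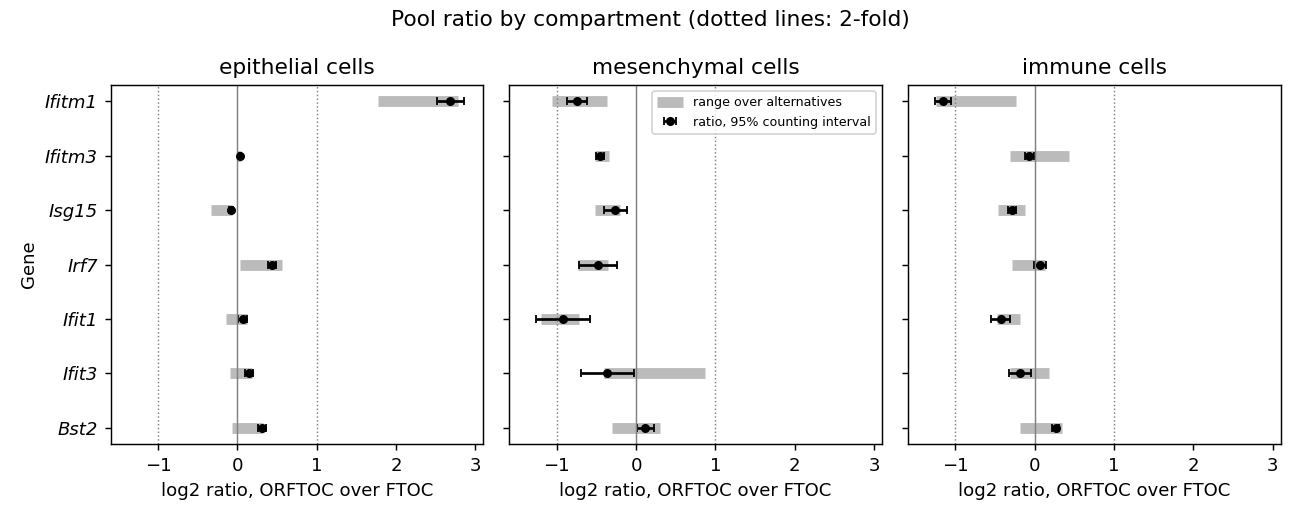
The log2 ratio of ORFTOC over FTOC (horizontal axis) for each gene in epithelial, mesenchymal and immune cells. Points show the ratio with its 95% counting interval, grey bars the range over up to 13 processing alternatives, and dotted lines a 2-fold difference. Ifitm1 lies at 2.68 in epithelial, -0.74 in mesenchymal and -1.15 in immune cells, and the points of the other genes lie within 2-fold.

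The epithelial Ifitm1 difference was carried mostly by airway-like cells. These made up 28.4% of ORFTOC and 11.3% of FTOC epithelial cells and held 88.7% and 62.3% of the epithelial Ifitm1 UMIs. Within them Ifitm1 stood at 591 CPM in ORFTOC (349 cells) and 169 CPM in FTOC (108 cells), a log2 ratio of 1.80 (1.59 to 2.02). With doublets kept, Ifitm1 stood there at 576 and 246 CPM (361 and 115 cells), a log2 ratio of 1.23. The interval of that lower ratio left out equality and did not overlap the main interval. The airway-like log2 ratio was 1.81 with the interferon genes left out of the clustering and 1.85 after log-normalisation. In Aire mTEC-like cells Ifitm1 stood at 152 and 31.0 CPM (log2 ratio 2.29, 1.80 to 2.80), and in mTEC-like cells at 22.7 and 13.9 CPM (0.71, 0.25 to 1.18). With the shares of the clusters held equal between pools, the epithelial log2 ratio was 1.77. After thinning to 1000 UMIs, 8.61% of ORFTOC and 1.57% of FTOC epithelial cells had an Ifitm1 UMI, and before thinning 18.1% and 7.23% did. In FTOC 54.4% of the epithelial Ifitm1 UMIs came from 1% of the cells, against 26.9% in ORFTOC. Ifitm1 stood at 39.6 CPM in the free RNA profile, above the FTOC epithelial level. Free RNA was an estimated 4.68% of the UMIs of FTOC epithelial cells, a share taken for the compartment as a whole. How far it made up the Ifitm1 UMIs of a population was not tested.

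Outside the epithelium, Ifitm1 was lower in ORFTOC in several populations. In mesenchymal cluster 1 it stood at 92.9 CPM in ORFTOC (108 cells) and 679 CPM in FTOC (40 cells), a log2 ratio of -2.87 (-3.09 to -2.65). Mesenchymal cluster 2 held 85.6% of the mesenchymal Ifitm1 UMIs of ORFTOC and 28.2% of those of FTOC, and there Ifitm1 stood at 1027 CPM in ORFTOC (96 cells, 977 to 1079) and 768 CPM in FTOC (664 to 884), which had only 16 cells in it. In ILC3-like cells it stood at 5.10 and 186 CPM (-5.19, -6.23 to -4.30), and in NK or ILC1-like cells at 131 and 571 CPM (-2.13, -2.31 to -1.94). Macrophage or monocyte-like cells had 91 Ifitm1 UMIs in ORFTOC (33.0 CPM, 143 cells) and 1 in FTOC (1.58 CPM, 44 cells). The FTOC sum was under 3 UMIs, so no ratio is given there. Of the 18 populations with at least 20 cells of both pools, the Ifitm1 interval lay above equality in 4, below it in 5 and across it in 2, and 7 had fewer than 3 UMIs in a pool. No share over all genes was taken by population.

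By population, the levels of the other members differed from the sums over compartments. In mTEC-like cells (430 and 302 cells), Isg15 stood at 1441 CPM in ORFTOC and 2021 CPM in FTOC, a log2 ratio of -0.49 (-0.53 to -0.44). There Ifit1 had a log2 ratio of -0.57, Ifit3 -0.49, Irf7 -0.36, Ifitm3 -0.19 and Bst2 -0.19, all with intervals below equality. These ratios rest on the clustering. In the 264 cells that were mTEC-like without the interferon genes (191 and 73 cells), Isg15 had -0.17 (-0.26 to -0.09), and the intervals of the other 6 members, Ifitm1 (-0.30) among them, held equality. In airway-like cells Irf7 stood at 1110 and 733 CPM (0.60, 0.49 to 0.71). Ifit1 had a log2 ratio of 0.53 there, Ifit3 and Ifitm3 0.49 each and Bst2 0.16, with intervals above equality, and Isg15 -0.09 (-0.15 to -0.04). In cTEC-like cells, with 32 cells in FTOC, Isg15, Irf7, Ifit1 and Bst2 had intervals that held equality. The difference between mTEC-like and airway-like cells was not tested, since each pool is 1 sample.

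Over the 18 populations, the Isg15 interval lay below equality in 14, above it in 0 and across it in 4. Ifitm3 was below in 11 and above in 2, Bst2 below in 9 and above in 3, Irf7 and Ifit1 each below in 8 and above in 2, and Ifit3 below in 6 and above in 2. The share of all genes with such intervals was not taken by population, so these counts have no background. Where UMIs are many, the interval of a small difference also leaves out equality. With the shares of the clusters held equal, the epithelial log2 ratios were -0.33 for Isg15, -0.14 for Ifit1, -0.09 for Ifit3, -0.07 for Bst2, -0.01 for Ifitm3 and 0.03 for Irf7. Ifit1, Ifit3, Bst2 and Ifitm3 changed direction under this setting, and no interval is given for its ratios. The clusters it used were formed with the members among the genes. It was not repeated with clusters formed without the interferon genes.

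**Figure D3:**
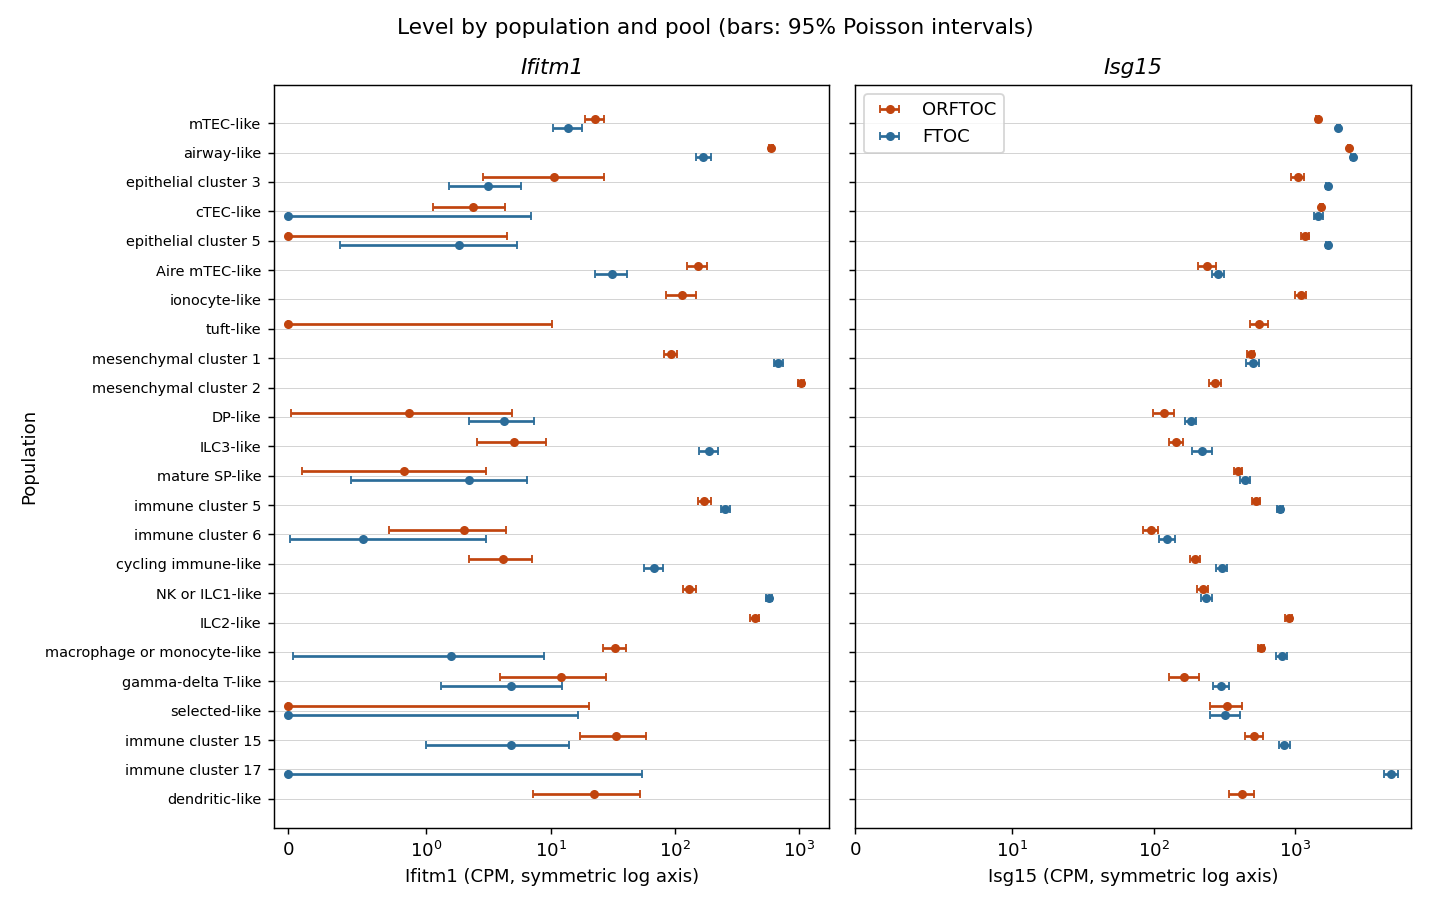
Ifitm1 (left) and Isg15 (right) in CPM on a symmetric log axis in each population, for ORFTOC and FTOC where a pool had at least 20 cells. Bars are 95% Poisson intervals. Isg15 is lower in ORFTOC than in FTOC in most populations, whereas Ifitm1 is higher in ORFTOC in airway-like cells (591 against 169 CPM) and lower in ILC3-like cells (5.10 against 186 CPM).

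At equal depth per cell the shares of cells with a UMI were compared as well. In epithelium they were 37.0% (34.3 to 39.7) in ORFTOC and 30.7% (27.8 to 33.7) in FTOC for Irf7, and the intervals of Isg15, Ifit1, Ifit3, Ifitm3 and Bst2 overlapped between pools. In mesenchymal cells Ifit3 was found in 7.84% of 204 ORFTOC cells and in 0 of 56 FTOC cells, which allows up to 6.38% by the exact interval, although its CPM was higher in FTOC. The Ifit3 UMIs of FTOC mesenchymal cells came to 29.9% from 1 cell, and without the cell with most Ifit3 UMIs in each pool the levels were 68.8 and 70.5 CPM, with an interval of the log2 ratio (-0.42 to 0.37) that held equality.

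**Figure D4:**
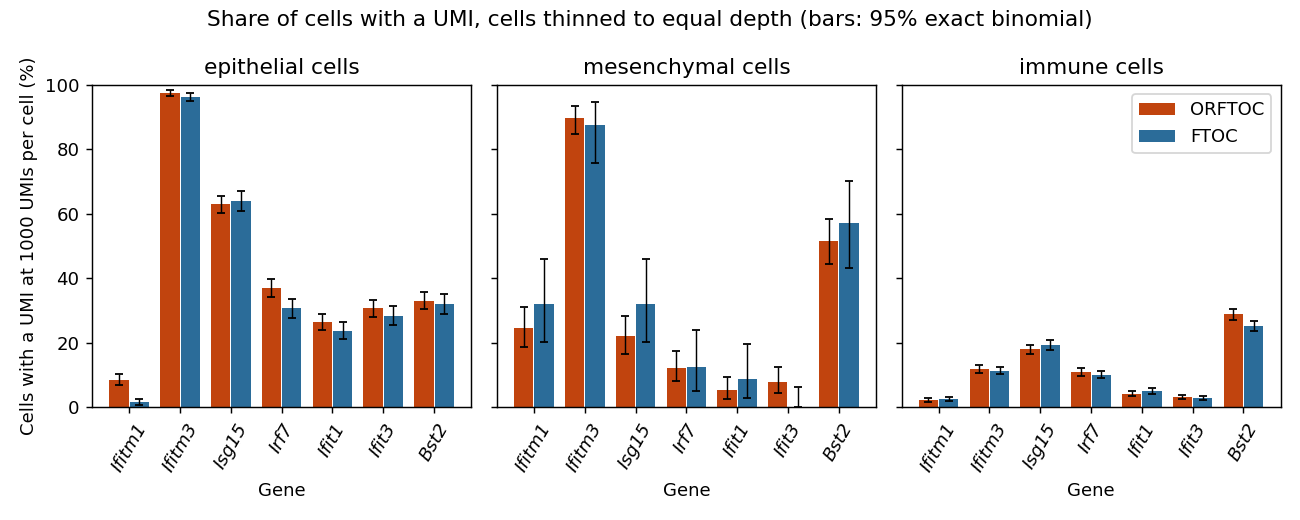
Share of cells with at least 1 UMI of each gene after every cell had been thinned to 1000 UMIs, in ORFTOC and FTOC, with exact 95% binomial intervals. Ifitm3 is found in 97.5% and 96.3% of epithelial cells, and Ifitm1 in 8.61% and 1.57%.

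Other genes of the pathway, from a list of 131 of which 127 were in the matrix, were read in the same sums. Of 20 ligand genes, 16 had 0 UMIs in any cell, and the ligands together had 101 UMIs. Ifng, the interferon gamma gene, had 68 UMIs, 47 of them in NK or ILC1-like cells, and 50 of its 61 immune UMIs were in FTOC. Ifna2 had 9 UMIs, all in Aire mTEC-like cells of FTOC, and Ifnz had 23, of which 13 were in cTEC-like cells. The receptor genes were above the limit of 20 CPM except for 1, and 0 were called. In epithelium Ifngr1 stood at 88.4 and 61.4 CPM (log2 ratio 0.53), Ifngr2 at 116 and 81.5 CPM (0.51), Ifnar2 at 112 and 90.1 CPM (0.31), Ifnar1 at 32.9 and 33.1 CPM (-0.0068) and Il10rb at 70.8 and 71.0 CPM (-0.0032).

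Of 12 transducers tested in epithelium 0 were called. The kinase gene Jak2 stood at 63.1 CPM in ORFTOC and 32.6 CPM in FTOC (0.95, 0.79 to 1.12), while Jak1 and Irf3 had log2 ratios of 0.37 and 0.28. Socs3, an inhibitor of the pathway, had -0.29, Irf8 -0.19 and Usp18, which removes Isg15 from proteins, -0.10. Stat2 and Irf9, transcription factors of the type I pathway, had log2 ratios of 0.0009 (-0.11 to 0.11) and 0.010 (-0.09 to 0.11), with intervals that held equality. Of 7 sensors of viral nucleic acid and their signalling partners 0 were called, with Zbp1 at 0.26, Dhx58 at 0.26 and Ddx58 at 0.21 at the upper end and Myd88 at 0.20, Ifih1 at -0.02 and Tmem173, which encodes STING, at -0.45 at the lower end.

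Among 39 genes listed as type I targets and tested in epithelium, 2 were called higher in ORFTOC and 0 lower (background 3.06% and 1.53%). Isg20, an RNA exonuclease, stood at 421 and 154 CPM (1.45, 1.38 to 1.53), and Oas3 at 24.1 and 11.02 CPM (1.13). With the shares of the clusters held equal their log2 ratios were 0.27 and 0.32, and neither was called. After thinning Oas3 had 0.72 and was not called. Isg20 was highest in cTEC-like cells, at 1261 CPM over both pools. Ifi204 had 0.82, and the lowest in this part of the list were Ifi30 at -0.23, Ifit2 at -0.58 and Rsad2, which encodes the antiviral enzyme viperin, at -0.60. A place in this part, such as that of Ifi30, does not exclude induction by interferon gamma. Of 26 gamma targets, Gbp4 was called lower, at 12.8 and 25.9 CPM (-1.01), just past the limit, and under 5 of the 13 alternatives for the ratios it was not called (-0.99 to -0.85). The chemokine genes Cxcl10 and Cxcl9 had -0.70 and -0.58, and the antigen processing genes Tap2 and Psmb8 had 0.62 and 0.54, beside 0.55 for Tgtp1, which can share reads with its copy Tgtp2. Ifitm2 had 0.06.

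Over the whole list, 85 genes were tested in epithelium, with 2 called higher and 1 lower (background 3.06% and 1.53%). Their median log2 ratio was 0.13. In mesenchymal cells 75 were tested, and 0 were called higher and 6 lower (Irf1, Dhx58, Mavs, Rsad2, Slfn5 and Cxcl10). The background was 1.74% and 2.94%, and the median of the listed genes was -0.25. After thinning, Dhx58, Mavs, Rsad2 and Slfn5 were not called. In immune cells 79 were tested, and 3 were called higher (Irf5, Ifi30 and Ifitm2) and 0 lower (background 3.07% and 1.18%). The median of the listed genes there was -0.25. Over all genes tested the medians were 0.0074, -0.10 and -0.06. Macrophage or monocyte-like cells were 5.08% of ORFTOC and 1.41% of FTOC immune cells. With the shares of the clusters held equal, the log2 ratios of the 3 genes called higher were 0.49 for Irf5, 0.07 for Ifi30 and 0.21 for Ifitm2. None of these was then called, while 2 genes of the list were called lower.

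**Figure D5:**
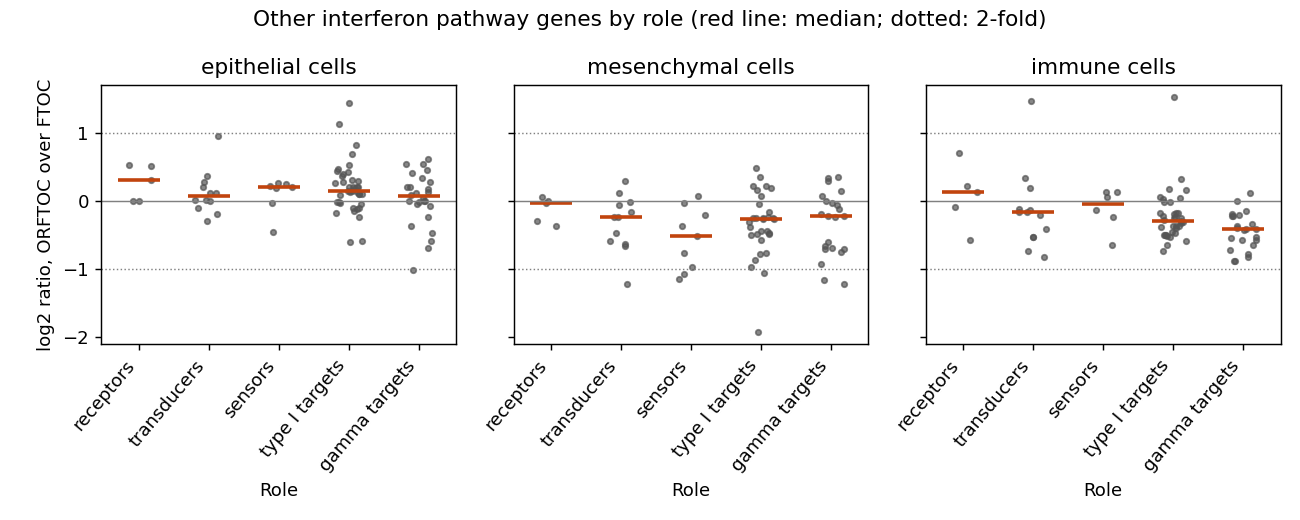
The log2 ratio of ORFTOC over FTOC (vertical axis) for each other pathway gene that reached 20 CPM in its higher pool, by role and compartment. Red lines are medians and dotted lines a 2-fold difference. Medians of the target groups lie above 0 in epithelial cells and below 0 in mesenchymal and immune cells.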

How the data were processed

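The authors aligned 5′ single-cell reads to the mm10 mouse genome with Cell Ranger 6.1.2, per the labels, whereas the header of the deposited matrix names version 4. The deposited matrix held unfiltered UMI counts for 705161 barcodes with 2 hashtag rows, and per the labels HTO_1 marks FTOC and HTO_2 marks ORFTOC. The deposited T cell receptor contigs were not used here.

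Cells with at least 600 genes and 0.4 to 10% mitochondrial UMIs were kept (10245). HTODemux (Seurat 5.3.0) gave 8983 single cells, and 591 within-pool doublets were removed by a rebuilt neighbour rule. Cells were normalised by SCTransform (version 0.4.2), with the cell cycle scores as covariates. Then 18 principal components and resolutions of 0.4 (1 for immune cells) gave 29 clusters, of which 21 were named from marker lists and called X-like. A class needed 3 markers detected in 5% of cells, 1 of them among the 10 leading genes, and a lead of 0.25 in mean log2 fold. Clusters of 1 class were merged, which left 24 populations. Rebuilt names may differ from those of the study.

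UMIs were summed per cell type and pool and scaled to CPM. Ratios set sums under 3 UMIs to 3, and no ratio by population is given there. Intervals are 95% exact Poisson, conditional binomial or Clopper-Pearson and cover counting error only. Shares of cells were also taken after thinning to 1000 UMIs, which left out 42 ORFTOC and 75 FTOC immune cells. The functions were tested on simulated data. All 7 members are named, with the 3 highest and 3 lowest epithelial ratios of each role of the wider list and the 3 genes most like each member, of which the text gives the closest. Other genes named, such as those called outside epithelium, leading genes and the genes of immune cluster 17, were chosen after their values were seen. The rules that give no ratio for a population, or after subtraction of free RNA, where a sum was under 3 UMIs, and the 1.5-fold limit for results singled out in the closing section, were also set after values had been seen. The members and lists were chosen with earlier results of these data known. R 4.3.3, Python 3.11.15, scipy 1.17.1 and pandas 2.3.3 were used. Alternatives covered hashtag rule, gene minimum, doublets, free RNA, cell weights, compartments, clustering, depth and call limits.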

Additional observations from a re-analysis of the deposited data

Results flagged for a closer look

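Ifitm1 stood out because its log2 ratio of ORFTOC over FTOC had opposite directions in different compartments, each over 1.5-fold with a counting interval that left out equality. It was 2.68 in epithelial cells, -0.74 in mesenchymal cells and -1.15 in immune cells. The immune log2 ratio was -0.23 with every cell given equal weight. In mesenchymal cluster 1 the log2 ratio was -2.87, while in cluster 2 Ifitm1 stood at 1027 CPM in ORFTOC and 768 CPM in FTOC (16 cells). At 1.5-fold, 7.08% of all genes were higher in epithelium, 8.96% lower in mesenchymal cells and 3.91% lower in immune cells. The share of all genes with opposite directions was not counted. Each pool is 1 sample, so the difference between compartments was not tested.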

How the results depend on the processing

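No paired analysis was possible because each pool is 1 sample and the labels number no replicates, and no replicate could be left out. The first 13 alternatives for the ratios all kept epithelial Ifitm1 higher in ORFTOC over 2-fold (log2 ratio 1.77 to 2.78) and Ifitm1 lower in mesenchymal (-1.06 to -0.37) and immune cells (-1.25 to -0.23). Of the log2 ratios of members under these alternatives, 218 moved by less than their counting interval, 37 moved by more and 17 changed direction. The cause was not tested. Cluster makeup held equal turned epithelial Ifitm3 (-0.0091), Ifit1 (-0.14), Ifit3 (-0.091) and Bst2 (-0.071), and immune Bst2 (-0.19). Thinning to 1000 UMIs turned mesenchymal Ifit3 (0.87, set by the floor of 3 UMIs in FTOC) and Bst2 (-0.30). Immune Ifitm3 turned with a hashtag ratio rule (0.34), equal weight per cell (0.16), compartments set by 3 marker genes (0.39), cells with a foreign marker left out (0.44), log-normalised clustering (0.0064), no cell cycle regression (0.41) and thinning (0.20). Immune Ifit3 turned with free RNA subtracted (0.19), equal weight (0.077) and thinning (0.16). Subtraction gave no ratio for immune Ifitm3.

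Members called lower in mesenchymal cells numbered 1 under the hashtag ratio rule, equal weight, 3 marker genes and no foreign marker, and 2 at 1.5-fold. Members called lower in immune cells numbered 0 with equal weight or thinning. Wider-list genes called higher in epithelium numbered 1 with thinning or at least 50 CPM, 0 with cluster makeup held equal, 6 at 1.5-fold and 4 with no minimum level. Those called lower there numbered 0 under the hashtag ratio rule, 3 marker genes, log-normalised clustering, no cell cycle regression, equal cluster makeup and 50 CPM, 2 with doublets kept or no minimum, and 3 at 1.5-fold. In mesenchymal cells 1 was higher with free RNA subtracted or 3 marker genes, while the lower calls numbered 10 with 3 marker genes, 11 with no foreign marker, 3 with thinning or 50 CPM and 18 at 1.5-fold. In immune cells 0 were higher with equal cluster makeup and 6 with no minimum, and the lower calls numbered 2 in both and 9 at 1.5-fold. Over all genes, the higher and lower calls at 1.5-fold numbered 500 and 295 in epithelial, 257 and 606 in mesenchymal, and 317 and 252 in immune cells. At 50 CPM they numbered 105 and 45, 43 and 83, and 89 and 31, and with no minimum 735 and 1089, 191 and 504, and 797 and 676.

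Both further alternatives were chosen after seeing the data. Without immune cluster 15 immune Ifitm3 turned (0.54). Without the cell with most UMIs of the gene in each pool no ratio of a member changed direction. The depth of immune cells and the 56 FTOC mesenchymal cells limit the precision. Free RNA was an estimated 19.0% of FTOC immune UMIs.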
